A study of Mus musculus with 19 samples.

Results

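The passage of wild-type XY mouse embryonic stem cells (mESC) of the E14 line to epiblast-like cells (EpiLC) was described across genes, from 6 of the 19 RNA sequencing libraries of the series. Transcript values in TPM, the share of a library's transcripts after division by length, were summed per gene. Genes were taken where the sum reached at least 1 TPM in at least 3 of the 6 libraries, which kept 13583 of 54119 genes. The 6 libraries were 3 of XY mESC and 3 of XY EpiLC, numbered 1 to 3 in each group by their titles. The mESC were kept in N2B27 medium with LIF and with inhibitors of GSK3 and of MEK1/2. The EpiLC were derived from them over 5 days with FGF5 and Activin A and no LIF, and their titles call them epiblast. No gene was deleted in these 6 libraries. Wild-type XX libraries of the LF2 line, 3 in each state, were used for 1 comparison at the end. The XX LF2 libraries lacking Tet3, 4 of mESC and 3 of EpiLC, entered only an alternative that scaled all libraries together. E14 is 1 line, so sex and line cannot be told apart. The labels do not say that replicates were separate cultures, so the p-values measure only the spread between these libraries, which may be technical.

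Mouse embryonic stem cells kept with LIF and these inhibitors resemble the naive epiblast before implantation. FGF acting through ERK, and Activin or Nodal acting through SMAD2 and SMAD3, carry such cells into a formative and then primed state like that of the epiblast after implantation. In that passage the embryo's epiblast loses its naive transcription factors, gains de novo DNA methylation and becomes a polarised epithelium with a lumen. Inhibition of GSK3 stabilises β-catenin, the effector of Wnt signalling, and LIF acts through the receptor chains Lifr and Il6st on Stat3.

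Library composition varied. The small RNAs Rn7s1 and Rn7sk held 23.5 to 33.4% and 7.83 to 13.6% of TPM, and protein-coding genes held 30.1 to 46.7%, lowest in XY mESC replicate 2. Values below are TPM divided by median-of-ratios factors, which ran from 0.58 to 1.38 and were lowest for that library. Across the tested genes log2 values correlated at 0.982 to 0.988 between EpiLC libraries and 0.966 to 0.986 between mESC libraries, with mESC replicate 2 in the lowest pair. The read depth is unknown, because TPM keeps none. The Y-linked genes Eif2s3y and Ddx3y lay at 40.4 to 50.4 and 12.2 to 17.6 TPM in the 6 libraries. Xist, which coats an inactive X chromosome, stayed at or below 0.737 TPM. Of 13 markers of primitive endoderm 3 were tested, and these 3 reached 1 TPM in EpiLC only, so the filter fixed their direction. Lrp2, Foxa2 and Dab2 were called higher in EpiLC, while Gata6 and Sox7 stayed at or below 0.267 and 0.0208 TPM and Sox17 reached 1.04 TPM. Of the fibroblast markers Thy1 was called higher, and Col1a1, Col1a2 and Col3a1 stayed at or below 0.551 TPM. The part of such cells in the results was not tested. In bulk RNA, fewer cells of a type and less RNA per cell cannot be told apart.

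In EpiLC the naive factors were lower, many genes of the FGF and Nodal pathways, of tight junctions, of the matrix and of the actin cytoskeleton were higher, and Pou5f1 and Nanog were still present at lower levels. Differences were tested with limma on log2(scaled TPM + 1), with Benjamini-Hochberg adjustment over all 13583 genes. A gene was called at an adjusted p under 0.05. A log2 fold change is EpiLC minus mESC on that scale, which understates the change of low genes, and values given after a gene in brackets, or after "rose by" or "fell by", are these log2 fold changes. In all 7897 genes (58.1%) were called, 4004 (29.5%) higher and 3893 (28.7%) lower in EpiLC. Of these, 1600 (11.8%) rose and 1515 (11.2%) fell by at least 1 on the log2 scale. The 3 EpiLC libraries did not overlap the 3 mESC libraries for 8905 genes (65.6%). The scaling sets the median change over the tested genes to 0.00, and every change is relative to that. With protein-coding genes rescaled to a common total that median was 0.295 and 70.7% of calls were higher. With no scaling it was 0.585 and 83% were higher, against 50.7% here. Of the falls named below, those of Acadm, Cbx7, Ccnd1, Ccnd3, Ctsd, Epop, Foxd3, Klf3, Klf8, Klf9, Mest, Mtf2, Nanog, Pim1, Pou5f1, Setdb1, Stat3, Suz12 and Vim were not called in unscaled TPM. Those of Cbx7, Mest, Stat3 and Vim were also not called with protein-coding genes rescaled. Leaving out EpiLC replicate 2 or 3 left 5107 and 5078 calls, with 12064 and 12053 genes tested. A gene could be tested through 1 state alone, which 1259 genes were through EpiLC and 510 through mESC, and 10187 genes reached 1 TPM in every library. Such a gene had to differ, and it is no longer tested once a library of its state is left out. Counts and medians over lists below cover tested members only and are descriptions. The counts are to be read beside the shares of all tested genes, 29.5% higher and 28.7% lower.

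**Figure D1:**
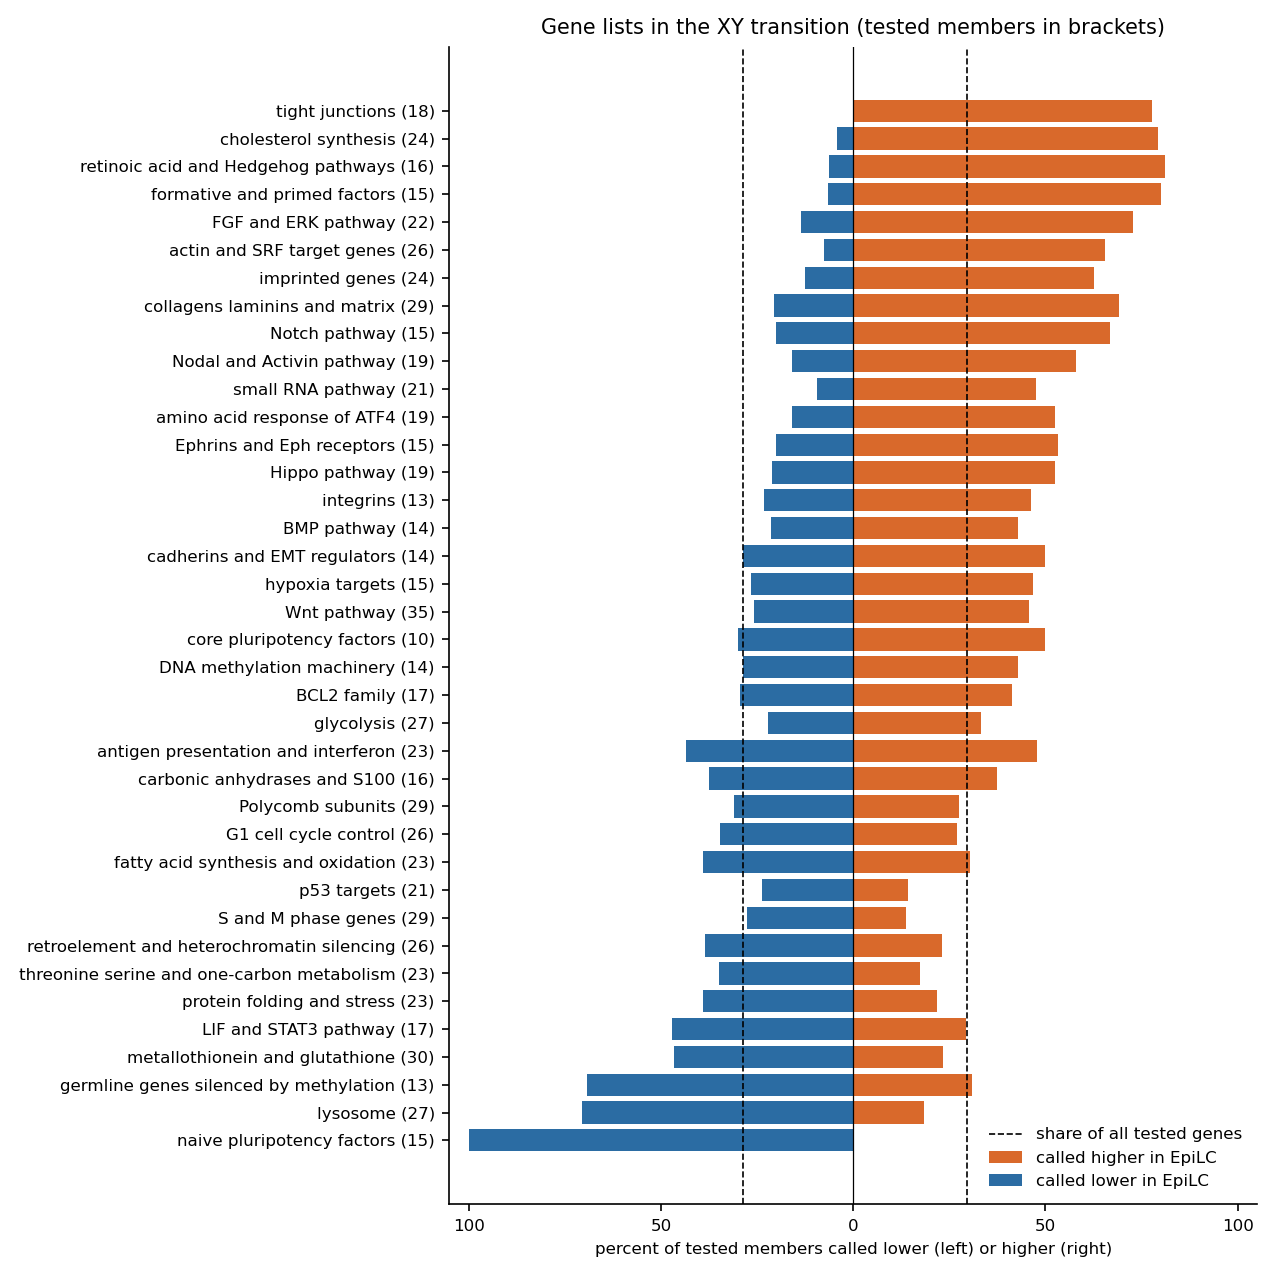
Percent of the tested members called higher (right, orange) or lower (left, blue) in EpiLC, for each gene list with at least 10 tested members (y axis, number tested in brackets). Dashed lines mark the shares of all tested genes, 29.5% higher and 28.7% lower; the naive factors lie at the foot, all tested members lower, and tight junctions at the top with no member lower.

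The largest changes among called protein-coding genes with a mean of at least 5 TPM in the higher state and no overlap of libraries fell on genes of several kinds. Car4, a membrane-bound carbonic anhydrase at chr11:84957786-84966044, had the highest log2 fold change. It lay at 0.181, 0.043 and 0 TPM in mESC and 91.6, 82.6 and 84.1 TPM in EpiLC. Mylpf, a myosin light chain of fast muscle at chr7:127208890-127214298, had the lowest. It lay at 367, 274 and 278 TPM in mESC and 0.424, 1.22 and 0.867 TPM in EpiLC. Each gene separated the groups with no overlap, with log2 fold changes of 6.34 ± 0.10 (SE; adjusted p = 4.84e-07) and -7.40 ± 0.19 (SE; adjusted p = 9.67e-07). The next 11 highest were Fgf5 (5.32), Crabp2 (5.21), Arl4c (5.10), Lrp2 (5.10), Fndc3c1 (5.08), Emb (5.01), Igfbp3 (4.91), Kif1a (4.64), Pim2 (4.46), Slc39a8 (4.42) and Lamb1 (4.30), with log2 fold changes in brackets. They include a retinoic acid carrier (Crabp2), an endocytic receptor (Lrp2), a binding protein of insulin-like growth factors (Igfbp3) and a laminin chain (Lamb1). The next 11 lowest were Fam25c (-6.99), Ly6a (-6.86), Gstp2 (-6.34), Jam2 (-6.27), Trpm1 (-6.18), Esrrb (-5.89), Crxos (-5.88), Rpl39l (-5.86), Spp1 (-5.82), Tcl1 (-5.71) and Rpl10l (-5.55). Rpl39l and Rpl10l encode ribosomal protein paralogs best known from the male germ line. Values of genes with near-identical copies, among them Gstp2, Rpl39l, Rpl10l, H2-K1, Ifitm1, Ifitm3, Dppa5a, Pramef12 and Serpinb6c, rest on how the authors' quantification divided shared reads.

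Every tested naive pluripotency factor fell. All 15 tested of 16 listed were called lower, with a median log2 fold change of -4.58 against 0.00 over all genes, and 9 of them reached 1 TPM in mESC only. Without any 1 mESC library those 9 were not tested and the other 6 were called lower. Esrrb, an orphan nuclear receptor of the naive state, lay at 97.3, 81.7 and 97.8 TPM in mESC and 0.733, 0.586 and 0.391 TPM in EpiLC. Zfp42, also known as Rex1, lay at 283, 191 and 250.3 TPM in mESC and 5.8, 5.19 and 5.31 TPM in EpiLC, 44.4-fold lower. Klf2 and Klf4, Krüppel-like factors of the naive network, fell to 0.806 and 0.262 TPM on average from 63 and 32.2. No EpiLC library reached the mESC range for any of them. Tfcp2l1 (-5.13), Nr0b1 (-4.58), Nr5a2 (-4.57), Tbx3 (-4.19), Prdm14 (-3.70) and the cell surface gene Pecam1 (-4.01) were likewise lower. Klf5 kept 3.27, 2.79 and 3.01 TPM, from 19.96, 19.4 and 21.2. Dppa3, or Stella, lay at 17.8, 137 and 15.2 TPM in mESC and 0.158, 0 and 0.13 TPM in EpiLC, with mESC replicate 2 far above the other libraries.

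Nanog and Pou5f1 were lower but still high, Sox2 was nearly lost, and Lin28a was higher. Nanog lay at 191, 132 and 166 TPM in mESC and 68, 57.4 and 59.1 TPM in EpiLC, 2.65-fold lower, with a log2 fold change of -1.38 ± 0.15 (SE; adjusted p = 0.000306). Pou5f1, which encodes OCT4, lay at 604, 499.6 and 474 TPM in mESC and 359, 287 and 288 TPM in EpiLC, 1.69-fold lower (-0.75 ± 0.15, SE; adjusted p = 0.00542). In unscaled TPM neither was called, at -0.69 (adjusted p = 0.0832) for Nanog and -0.06 (adjusted p = 0.845) for Pou5f1, and with quantile normalization Pou5f1 lay at -0.19 (adjusted p = 0.264). Sox2, the partner of OCT4 on shared enhancers and a gene of the core list at chr3:34650405-34652461, lay at 112, 125 and 103 TPM in mESC and 2.97, 2.12 and 2.46 TPM in EpiLC. Its EpiLC libraries sat 45.1-fold below mESC, with a log2 fold change of -5.03 ± 0.12 (SE; adjusted p = 9.36e-07) beside a median of -4.58 for the naive factors. Of the 10 core genes 5 rose and 3 fell, with a median of 0.41. Lin28a, which blocks maturation of let-7 microRNAs, rose 17.2-fold, from 9.01, 4.66 and 9.19 to 141, 125 and 127 TPM. Utf1 (1.27), Sall4 (0.98) and Trim71 (0.72) also rose, and Rex2 (-4.59) fell.

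**Figure D2:**
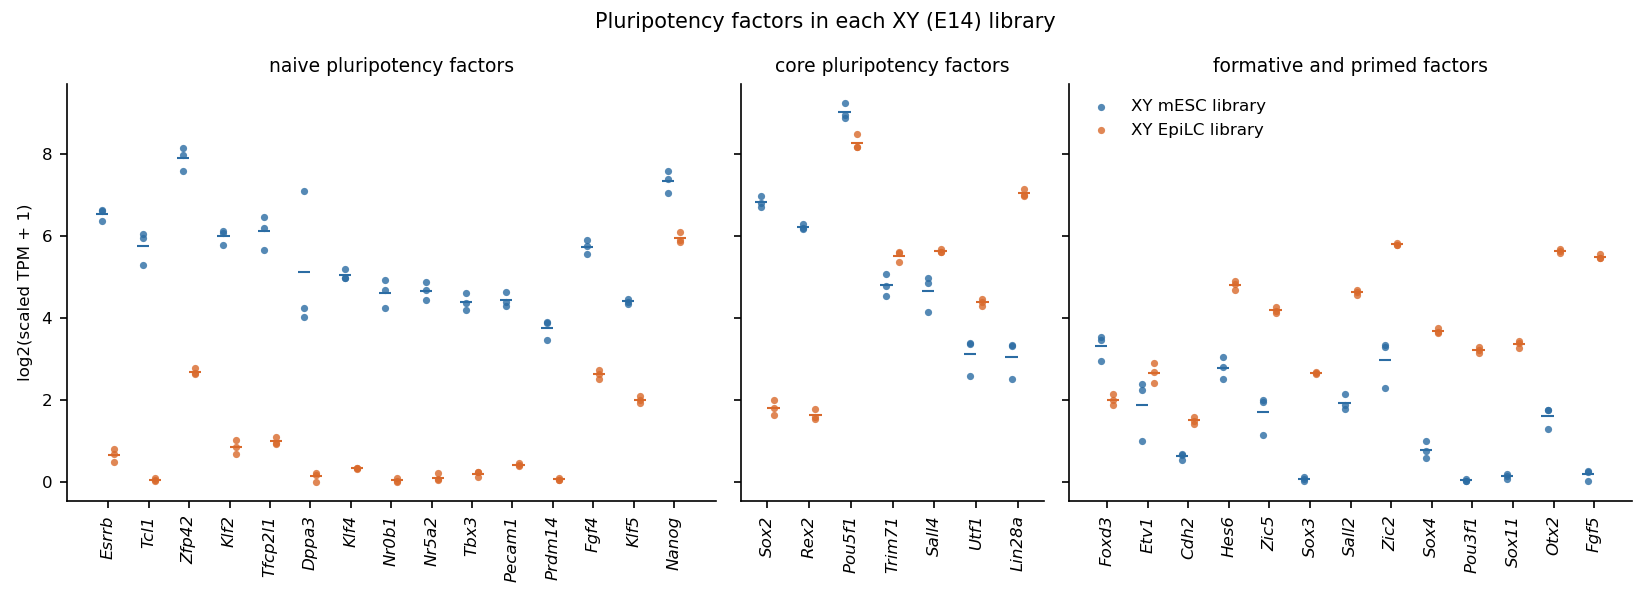
Scaled TPM of the naive, core and formative factors named in the text in the 6 libraries (y axis, log2 scale of scaled TPM + 1), with 1 point per library and a bar at the group mean. Esrrb drops to near 0 and Sox2 to about 2 in all 3 EpiLC libraries, Nanog and Pou5f1 drop less, Otx2 and Lin28a are higher in EpiLC, and Fgf5 rises from near 0.

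Formative and primed factors rose as a group, with 12 of 15 tested members (of 18 listed) called higher and 1 lower, of 18 listed. Their median was 2.59, and 6 reached 1 TPM in EpiLC only. Without any 1 EpiLC library 6 were called higher. Fgf5, the ligand that marks the epiblast after implantation and was also supplied in the medium, lies at chr5:98254184-98277030. It lay at 0.189, 0.0194 and 0.196 TPM in mESC and 46.1, 42.9 and 43.4 TPM in EpiLC (log2 fold change 5.32 ± 0.10, SE; adjusted p = 6.14e-07). Otx2, a homeobox factor that redirects OCT4 to formative enhancers, lay at 2.35, 1.45 and 2.37 TPM in mESC and 47.4, 49.1 and 50.03 TPM in EpiLC, 23.8-fold higher (4.04 ± 0.14, SE; adjusted p = 2.08e-06). Every EpiLC library exceeded every mESC library for both. Pou3f1 (3.19), Sox11 (3.24), Sox4 (2.90), Sox3 (2.59), Zic2 (2.83), Zic5 (2.49), Sall2 (2.71) and Hes6 (2.02) rose as well. Foxd3, placed in this list for its role in the passage out of the naive state, fell by 1.32. Etv1 (0.78 ± 0.37) was not called (log2 fold change ± SE).

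Receptors, feedback inhibitors and some ligands of the FGF and ERK pathway rose. Of 22 tested of 28 listed genes 16 were higher and 3 lower, with a median of 1.04. Of the tested members 7 reached 1 TPM in EpiLC only, and 8 or 9 were called higher without any 1 EpiLC library. Among ligands, Fgf8 lay at 0.0288, 0.0862 and 0 TPM in mESC and 16.4, 15.4 and 14.6 TPM in EpiLC, and Fgf15 rose by 1.43. Fgf4, the main ligand of naive cells, fell from 58.6, 46 and 52.9 to 5.68, 5.18 and 4.74 TPM. The groups did not overlap for Fgf8 or Fgf4, and the ligands went in opposite directions. The receptors Fgfr1 and Fgfr2 rose to 45.2 and 7.34 TPM on average from 7.46 and 0.188. Negative regulators that ERK induces rose as well. Dusp6, a phosphatase of ERK, lay at 2.73, 1.65 and 2.7 TPM in mESC and 31.4, 28 and 30.4 TPM in EpiLC, and Dusp4 rose by 2.64. Spry1, Spry2, Spred1, Spred3 and Il17rd, other inhibitors of the pathway, rose by 0.73 to 1.55. The immediate early gene Egr1 (1.17) rose from near 0. Against this direction, Etv5, an ETS factor downstream of FGF, fell from 86.3, 106 and 86.6 to 21.3, 22.9 and 22.9 TPM, and the cyclin gene Ccnd1 fell by 1.03. Etv4 (-0.38 ± 0.46) was not called, and mESC replicate 2 stood apart at 0.591 TPM against 4.41 and 4.28. Without that library Etv4 was called lower (-1.02, adjusted p = 0.000188).

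Antagonists and a receptor of the Nodal pathway rose, and ligand and convertase genes went down or were not called. In the Nodal and Activin list 11 of 19 tested members (of 22 listed) were higher (7 without any 1 EpiLC library) and 3 lower, with a median of 0.71. Lefty1, a Nodal antagonist and direct SMAD2 target, lay at 0.243, 0.0764 and 0.235 TPM in mESC and 20.7, 20.5 and 17.9 TPM in EpiLC. The antagonist Cer1 was listed at 0 in all 3 mESC libraries and lay at 3.27, 3.02 and 3.65 TPM in EpiLC. Nodal itself lay at 31.7, 23.1 and 29.7 TPM in mESC and 33.1, 32.1 and 30.9 TPM in EpiLC and was not called, but it was called higher with quantile normalization (0.35, adjusted p = 0.0378) and in unscaled TPM (0.86, adjusted p = 0.0407). The libraries of the 2 states overlapped for Nodal and did not for Lefty1. The receptor Acvr2b (1.40), the cofactor Foxh1 (1.47) and the regulator Skil (2.00) rose. Tdgf1, the Nodal co-receptor Cripto, rose by 1.81 with mESC replicate 2 at 7.98 TPM and the others at 40.2 and 34.5. It was no longer called without EpiLC replicate 1, 2 or 3 (adjusted p = 0.0607, 0.0528 and 0.0572). The TGF-β family ligand Gdf3 (-2.29), the Nodal convertase Pcsk6 (-2.94) and the Activin inhibitor Fst (-1.46) fell.

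BMP signalling genes went both ways. The list had 6 of 14 tested members (of 21 listed) higher (10 without mESC replicate 2) and 3 lower, at a median of 0.44. Bmp4, the ligand, fell from 15.5, 15.1 and 12.8 to 2.44, 2.35 and 4.2 TPM. Of the Id genes, the usual targets of BMP signalling, Id3 (-1.94) and Id4 (-2.39) fell. Id1 rose by 1.65 from 0.592, 2.55 and 0.401 to 5.38, 5.67 and 4.74 TPM, and Id2 (1.58 ± 0.59) was not called, with mESC replicate 2 again apart at 5.08 TPM against 0.271 and 0.297. Without that library Id2 was called higher (2.41, adjusted p = 3.28e-05). The antagonist Chrd (1.72) and the receptor Bmpr1a (0.68) rose.

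Several Wnt targets fell and most tested Frizzled receptors rose. The direct β-catenin targets Sp5, Notum, Cdx1 and Axin2 fell, Sp5 most (-4.10), and the GSK3 inhibitor was a component of the mESC medium. T, a mesendoderm gene that is also a β-catenin target, was called higher, but not with all 19 libraries (1.01, adjusted p = 0.343). Axin2, the most widely used reporter of the pathway, lay at 28.4, 44.8 and 28.8 TPM in mESC and 6.54, 7.69 and 7.31 TPM in EpiLC. Of 7 tested Frizzled receptors 6 rose, namely Fzd2 (2.90), Fzd7 (2.00), Fzd6 (2.03), Fzd1 (1.09), Fzd3 (1.02) and Fzd8 (0.81). The co-receptors Lrp5 (1.75) and Lrp6 (0.70) and the R-spondin receptor Lgr4 (1.84) rose too. The ligand Wnt3 rose from 0.0189, 0.0428 and 0.00632 to 3.23, 3.51 and 3.11 TPM, and Wnt8a and Wnt4 rose by 2.05 and 1.27. The secreted inhibitor Sfrp2 rose by 2.32 and Sfrp1 fell by 2.25. Ctnnb1, which encodes β-catenin, lay at 249, 344 and 231 TPM in mESC and 256, 234 and 229.8 TPM in EpiLC and was not called. Over the list 16 of 35 tested members (of 42 listed) were higher and 9 lower, with a median of 0.48 (0.08, 0.05 and 0.05 without EpiLC replicate 1, 2 and 3, and 0.12 at 5 TPM). Of these, 10 reached 1 TPM in EpiLC only and 3 in mESC only, and 8 or 9 were called higher without any 1 EpiLC library and 5 lower without mESC replicate 1 or 3.

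LIF receptor and STAT3 genes fell, and targets went both ways. The list had 5 of 17 tested members (of 18 listed) higher and 8 lower, at a median of 0.08, which was -0.50 among genes at 5 TPM or more and -0.13 to -0.17 without any 1 EpiLC library, and 0.15 to 0.20 without any 1 mESC library. Both receptor chains fell, Lifr from 13.5, 12.2 and 15.7 to 1.77, 2.01 and 1.92 TPM and Il6st from 18.1, 17.2 and 17.1 to 5.38, 5.65 and 5.9 TPM. Stat3 fell by 0.83 and its target Gbx2 fell by 2.42. Socs3, the feedback inhibitor usually induced by STAT3, rose by 1.04. Of the Pim kinases, Pim1 fell by 0.80, while Pim2 lay at 8.36, 5.82 and 8.66 TPM in mESC and 199, 177 and 181 TPM in EpiLC, 24.4-fold higher.

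**Figure D3:**
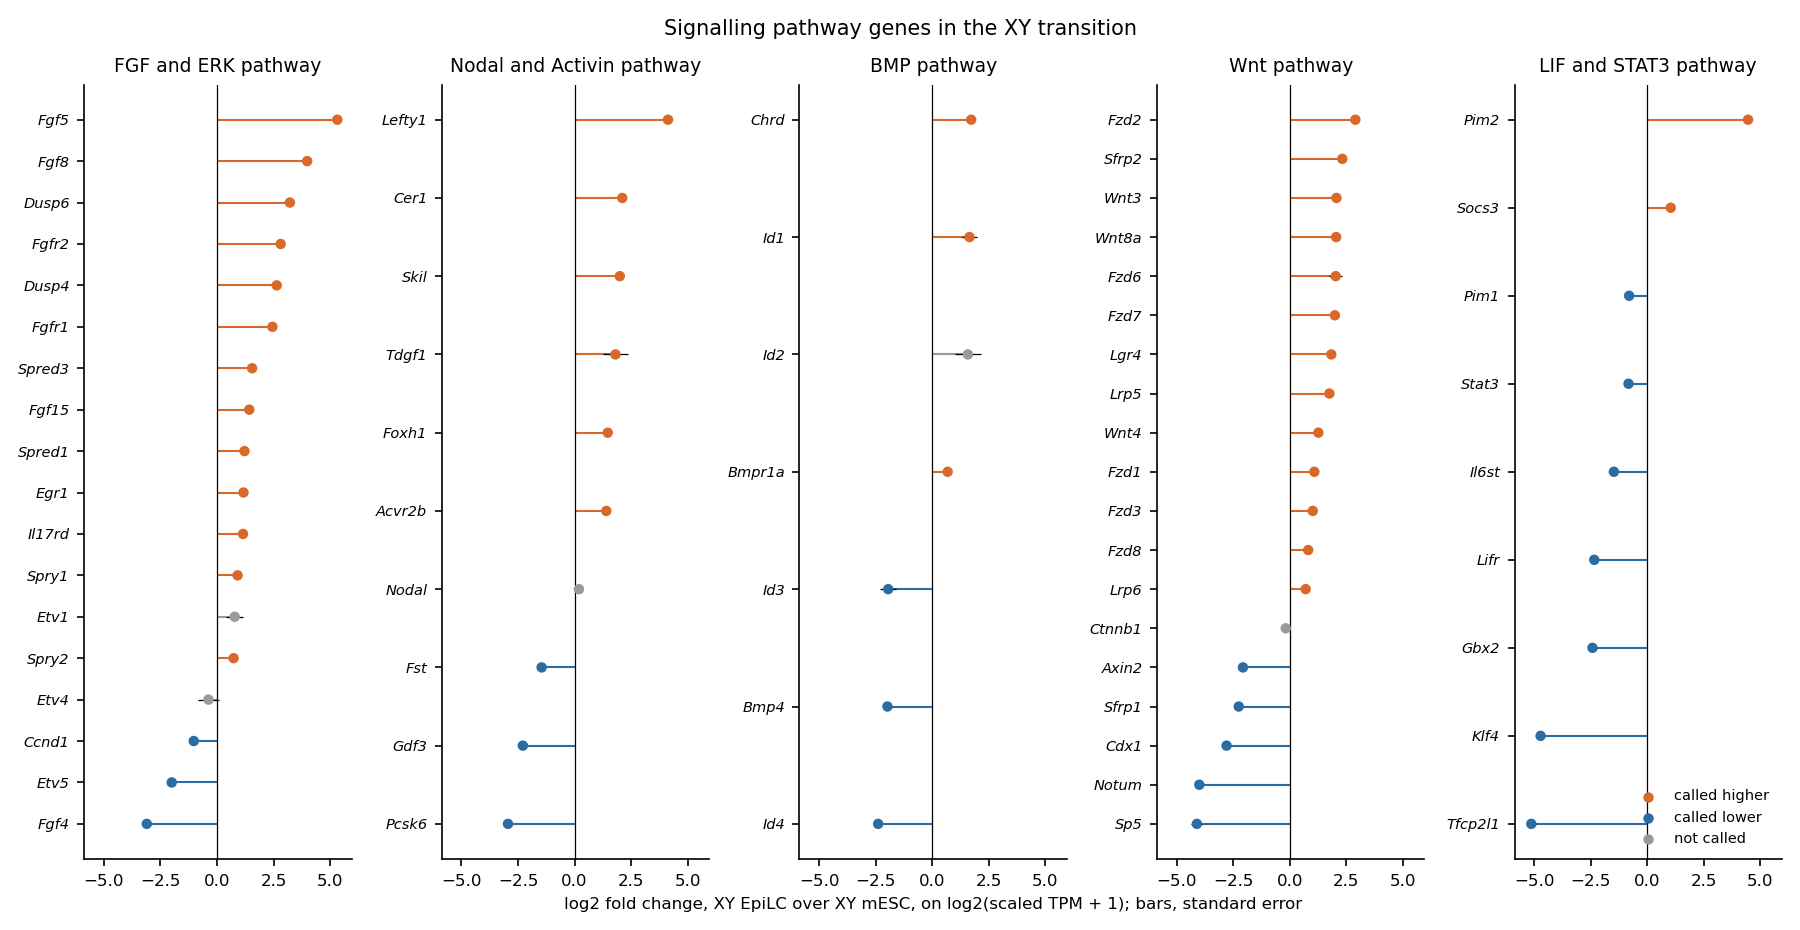
Log2 fold change (EpiLC minus mESC, with its standard error as a bar) of the ligands, receptors, inhibitors and targets named in the text for the FGF, Nodal, BMP, Wnt and LIF pathways, 1 point per gene. Wnt targets such as Sp5 and Axin2 lie below 0 and the 6 Frizzled receptors that rose lie above it, and Fgf4 lies below 0 while Fgf5 and Fgf8 lie above.

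In the Notch list, the Hippo list and the joint list of the retinoic acid and Hedgehog pathways, more members rose than fell. In the Notch list 10 of 15 tested members (of 21 listed) rose (5 without EpiLC replicate 2 or 3) and 3 fell, at a median of 0.71. The receptor Notch2 lay at 2.79, 3.16 and 3.51 TPM in mESC and 25.4, 30.6 and 29.5 TPM in EpiLC, Notch3 rose by 1.86, and the coactivator Maml3 rose by 2.44 while Maml2 fell by 1.72. In the Hippo list 10 of 19 rose and 4 fell, at a median of 0.48. Ccn1 and Ccn2, the standard targets of YAP and TEAD, rose by 3.03 and 2.97, and the YAP-binding angiomotins Amot, Amotl1 and Amotl2 rose by 2.73, 1.72 and 1.72. Tead2 rose to 70.2 TPM on average from 24.1, and Tead4 fell to 1.17 from 11.6. In the retinoic acid and Hedgehog list 13 of 16 rose (8, 6 and 7 without EpiLC replicate 1, 2 and 3) and 1 fell, at a median of 1.19 (0.74 and 0.75 without EpiLC replicate 2 and 3). Crabp2 lay at 0.297, 0.364 and 0.471 TPM in mESC and 59.7, 43.7 and 48 TPM in EpiLC. Cyp26a1, which degrades retinoic acid, was listed at 0 in mESC and lay at 2.3, 2.33 and 2.17 TPM in EpiLC, and the Hedgehog transducer Smo (2.75), the receptor Ptch1 (1.18) and the effectors Gli1 (1.40) and Gli3 (1.43) rose.

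Guidance receptors and ligands changed in both directions. Of 15 tested of 19 listed ephrins and Eph receptors 8 rose (3 without any 1 EpiLC library) and 3 fell. The receptor Epha4 lay at 28.8, 42.7 and 33.2 TPM in mESC and 1.33, 1.27 and 1.47 TPM in EpiLC, whereas Epha1 rose by 3.14 and the ligand Efnb2 lay at 0.574, 0.979 and 0.652 TPM in mESC and 17, 18.6 and 17.7 TPM in EpiLC. The groups did not overlap for Epha4 or Efnb2. Of 16 tested of 32 listed semaphorins and plexins 12 rose (6 or 7 without any 1 EpiLC library) and 2 fell, at a median of 1.20 (0.59 to 0.65 without any 1 EpiLC library), led by Sema3c (3.17), Sema6a (3.01) and the receptor Plxnb1 (2.61).

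The de novo DNA methyltransferases rose and Dnmt3l and Tet2 fell. Dnmt3b, at chr2:153649450-153687730, lay at 16.7, 10.3 and 16 TPM in mESC and 125, 128 and 128 TPM in EpiLC, 8.86-fold higher (3.09 ± 0.17, SE; adjusted p = 1.46e-05). Dnmt3a lay at 5.3, 4.34 and 4.58 TPM in mESC and 23.1, 23.3 and 23.1 TPM in EpiLC. Dnmt3l, their catalytically inactive cofactor, lay at 7.97, 6.05 and 7.92 TPM in mESC and 0.415, 0.225 and 0.158 TPM in EpiLC. The groups did not overlap for any of the 3. Of the dioxygenases that oxidise 5-methylcytosine, Tet1 rose from 0.589, 0.727 and 0.495 to 4.64, 4.83 and 5.35 TPM (adjusted p = 1.3e-05), Tet3 rose by 1.16, and Tet2 fell by 2.32 with mESC replicate 2 lowest of its group at 7.77 TPM. The Tet1 sum includes Tet1-202, annotated as a processed transcript and not as protein-coding. It held 45.3 ± 8.24% of the gene's TPM in mESC and 48.8 ± 1.87% in EpiLC (SD, n = 3). The maintenance genes Dnmt1 (-0.30 ± 0.14) and Uhrf1 (-0.63 ± 0.23) were not called, and without mESC replicate 2 both were called lower (-0.46 and -0.95, adjusted p = 0.00689 and 0.000143). Tdg, which removes oxidised cytosine, rose by 1.03. In all 6 of 14 genes rose (3 without EpiLC replicate 2 or 3) and 4 fell, at a median of 0.08, which was -0.09 to -0.12 without any 1 EpiLC library and 0.21 and 0.30 without mESC replicate 1 and 3.

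Transcript shares of Dnmt3b changed with its level. Transcript Dnmt3b-202 was listed at 0 in all 3 mESC libraries and held 40.3, 39.5 and 37.4% of the gene's TPM in EpiLC. Transcript Dnmt3b-201 fell from 39.3 ± 7.97% to 19.1 ± 0.43% (SD, n = 3), and Dnmt3b-208 from 39.5 ± 2.26% to 11.5 ± 1.26%. The groups did not overlap for any of these 3 transcripts. Dnmt3a-205 went from 13.5 ± 2.24% to 30.7 ± 3.34% of its gene, without overlap. In contrast Cdh1-201 (96.9 and 96.2%) and Pkm-201 (93.1 and 93.6%) kept overlapping shares. These are shares of estimated TPM among overlapping transcripts and were not tested.

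Promoters of germline genes are shown because many are silenced by DNA methylation in the passage to the epiblast and because genes of the germline list went both ways. The repressor complex PRC1.6 is known to bind such promoters through its E-box factors MAX and MGA and its E2F6 subunit. The letters CACGTG (E-box) and TCGCGC (part of the E2F6 motif), on either strand, are in capitals in the 120 bases before a RefSeq start (GRCm38.p6). Where a gene had several starts, the start with the most matches in these bases was chosen. From another start of Fkbp6, CACGTG begins at -232 and -168, outside the 120 bases. The genes are Hormad1 (chr3:95559557-95559676, plus strand), Stk31 (chr6:49395419-49395538, plus strand), Fkbp6 (chr5:135350045-135350164, minus strand) and Sycp3 (chr10:88459467-88459586, plus strand).
Hormad1: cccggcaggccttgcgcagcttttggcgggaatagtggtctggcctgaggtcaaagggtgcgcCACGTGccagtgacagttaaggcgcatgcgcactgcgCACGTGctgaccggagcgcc
Stk31: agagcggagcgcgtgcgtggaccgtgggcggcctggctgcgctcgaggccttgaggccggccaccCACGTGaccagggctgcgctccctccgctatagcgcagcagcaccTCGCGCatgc
Fkbp6: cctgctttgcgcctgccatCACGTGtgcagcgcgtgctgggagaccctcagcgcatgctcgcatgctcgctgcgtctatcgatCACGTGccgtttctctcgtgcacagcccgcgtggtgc
Sycp3: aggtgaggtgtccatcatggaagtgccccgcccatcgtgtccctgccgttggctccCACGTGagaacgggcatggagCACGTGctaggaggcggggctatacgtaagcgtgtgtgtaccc
Within 250 bases before any RefSeq start of a gene, CACGTG was present in 12 of 26 genes of the list with a promoter (46.2%). It was present in 1289 of 16463 protein-coding genes (7.83%). TCGCGC was present in 7 of 26 (26.9%) and in 1857 of 16463 (11.3%). By direction, CACGTG was present in 3 of the 9 genes that fell, 3 of the 4 that rose and 6 of 13 not tested. The list was chosen for germline genes silenced by methylation, so a share above that of all genes may follow from the choice. A match is a description of the letters and not of binding.

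Germline genes of this list fell more often than they rose. Of 28 listed, 13 were tested, 9 fell and 4 rose, and 9 of the tested reached 1 TPM in 1 state only. Without any 1 mESC library 3 were called lower, and without any 1 EpiLC library 1 was called higher. Hormad1, of the meiotic chromosome axis, lay at 18.8, 21.7 and 15.3 TPM in mESC and 0.102, 0.0635 and 0.0386 TPM in EpiLC. Fkbp6 and Dazl, a co-chaperone of the piRNA pathway and an RNA-binding protein of germ cells, fell (-3.22 and -3.64), as did Stk31 (-2.06). Sycp3, of the synaptonemal complex, lay at 5.37, 13.6 and 4.91 TPM in mESC and 56.7, 44.7 and 46.2 TPM in EpiLC. It and Tdrkh (2.44), Ddx4 (1.27) and Tdrd1 (0.87) rose, with no EpiLC library in the mESC range. Hsf2bp fell by 3.12. Of 6 tested of 10 listed germ cell specifiers 5 fell (3 without mESC replicate 1 or 2), including the receptor Kit (-2.45), Ifitm1 (-3.27) and Ifitm3 (-1.98). Of 8 tested of 16 listed Dppa, Pramel and related genes 7 fell (3 or 4 without any 1 mESC library) and none rose. Dppa5a lay at 2357, 3467 and 1978 TPM in mESC and 89, 72.8 and 69.8 TPM in EpiLC, and Dppa2 (-3.22), Ooep (-3.84) and Pramef12 (-3.28) fell.

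Imprinted genes rose more often than they fell, with 15 of 24 tested members (of 36 listed) higher and 3 lower, at a median of 1.35. The paternally expressed zinc finger gene Peg3 lay at 2.32, 3.53 and 3.19 TPM in mESC and 30.6, 37.4 and 38.2 TPM in EpiLC. The maternally expressed RNAs of the Dlk1-Dio3 domain rose together, Rian from 78.8, 129.9 and 78.9 to 273, 322 and 316 TPM, Mirg by 2.18 and Meg3 by 2.17. The 3 RNAs lie in 1 domain and are not independent of each other. Sgce (2.13), Sfmbt2 (2.33), Snrpn (1.76) and the growth inhibitor Cdkn1c (1.69) also rose, and Mest fell by 0.88. Mest was not called without EpiLC replicate 1, 2 or 3 (adjusted p = 0.0521, 0.0668 and 0.0711). Igf2r (0.23 ± 0.12) was not called. Zfp57, the zinc finger protein that protects imprints, fell from 150.1, 152 and 178 to 24.9, 31.6 and 29.7 TPM.

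Chromatin repressors were split. Of 29 tested of 30 listed Polycomb subunits 8 rose (5 without EpiLC replicate 3, mESC replicate 1 or mESC replicate 2) and 9 fell, at a median of -0.13 (0.50 in unscaled TPM, 0.01 and -0.06 without EpiLC replicate 1 and 2, and -0.20 without mESC replicate 1). These Polycomb shares, 27.6% higher and 31% lower, lay near those of all tested genes, 29.5% and 28.7%. In the PRC2 complex Suz12, a core subunit, fell from 68.2, 76.3 and 71.1 to 30.6, 32 and 30.01 TPM, and the accessory subunits Mtf2 (-1.41) and Epop (-1.57) fell, while Jarid2 rose by 0.72. The catalytic subunit Ezh2 (0.02 ± 0.20) was not called. In PRC1, Cbx7 fell by 0.94 and Phc1 rose by 1.21. In the list of retroelement and heterochromatin silencing 6 of 26 rose and 10 fell, at a median of -0.24 (0.41 in unscaled TPM and -0.15 without EpiLC replicate 3). Morc1, a retrotransposon repressor, lay at 36.4, 44.2 and 33.8 TPM in mESC and 0.254, 0.291 and 0.183 TPM in EpiLC. The H3K9 methyltransferase gene Setdb1 fell by 0.87, whereas Suv39h1 and Ehmt1 rose by 1.60 and 1.24 and Cbx5, which encodes HP1α, by 1.13. Zfp genes with 3-digit numbers that begin with 9, many of them KRAB zinc finger genes, had 4 of 59 tested members (of 62 listed) higher and 36 lower, at a median of -0.62. In the small RNA list 10 of 21 rose and 2 fell (5 without mESC replicate 2), at a median of 0.27 (0.14 without mESC replicate 2). Lin28b rose beside Lin28a, from 0.514, 0.346 and 0.578 to 17.6, 21.5 and 21.8 TPM. Dicer1 rose by 0.86.

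Epithelial junction genes rose. Of 18 tested of 26 listed tight junction and polarity genes 14 rose and 0 fell, at a median of 1.62. Podxl, an apical sialomucin that lines lumens, lay at 1.25, 1.73 and 1.08 TPM in mESC and 40.5, 37.9 and 38.5 TPM in EpiLC. Cldn7 and Cldn6, claudins of tight junctions, rose by 4.08 and 3.31, with mESC replicate 2 highest of its group at 4.35 and 11.1 TPM. Even so, no mESC library reached the EpiLC range. Cldn3 (2.77), the polarity scaffold Patj (3.42), Crb3 (1.90) and the ZO-1 gene Tjp1 (1.41) rose, and Cldn4 (0.00 ± 0.09) was not called. Cdh1, E-cadherin, lay at 59.7, 52.1 and 61.1 TPM in mESC and 101, 92.1 and 93.8 TPM in EpiLC. Cdh2, N-cadherin, rose from 0.6, 0.439 and 0.582 to 1.68, 1.82 and 1.98 TPM, so both cadherins rose, with E-cadherin the far higher in TPM. Epcam lay at 20.9, 60.6 and 19.1 TPM in mESC and 112, 102 and 99 TPM in EpiLC, with mESC replicate 2 apart. The epithelial splicing factor Esrp1 rose by 3.76 and the mesenchymal regulators Zeb2 and Twist1 rose by 2.74 and 2.33, from 0.129, 0.23 and 0.0664 and 0.308, 0.2 and 0.351 TPM in mESC. Vimentin, Vim (-1.09), and fibronectin, Fn1 (-2.88), fell. In this list of cadherins and regulators of the epithelial to mesenchymal transition 7 of 14 rose (4 without EpiLC replicate 1 or 2) and 4 fell, at a median of 0.53 (0.30 and 0.35 without EpiLC replicate 2 and 3). Among simple keratins and desmosome genes 6 of 9 rose and 2 fell, at a median of 1.00. Krt18 lay at 4.92, 18.1 and 3.74 TPM in mESC and 68.5, 58.4 and 57.9 TPM in EpiLC and its partner Krt8 at 21.3, 17.8 and 18.1 TPM in mESC and 36.6, 32.6 and 29.2 TPM in EpiLC. Krt18 was again highest of its group in mESC replicate 2.

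Promoters of actin genes are shown next because most of this list rose and many of its members are known targets of serum response factor (SRF), which binds the CArG box. The CArG box (searched as CC, then 6 bases of A or T, then GG, on both strands) is in capitals in the 120 bases before a RefSeq start (GRCm38.p6). Where a gene had several starts, the start with the most matches in these bases was chosen. The genes are Srf itself (chr17:46556163-46556282, minus strand), Actg1 (chr11:120348496-120348615, minus strand) and Cnn2 (chr10:79988480-79988599, plus strand).
Srf: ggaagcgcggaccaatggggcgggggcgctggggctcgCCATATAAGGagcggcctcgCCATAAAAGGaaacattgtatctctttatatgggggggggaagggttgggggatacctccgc
Actg1: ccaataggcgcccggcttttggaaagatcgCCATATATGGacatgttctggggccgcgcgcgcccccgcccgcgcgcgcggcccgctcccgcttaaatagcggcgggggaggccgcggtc
Cnn2: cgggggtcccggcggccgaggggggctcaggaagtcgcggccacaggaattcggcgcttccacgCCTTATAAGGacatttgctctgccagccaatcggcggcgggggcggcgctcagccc
Within 250 bases before any RefSeq start of a gene, the box was present in 8 of 27 genes of the list with a promoter (29.6%). It was present in 258 of 16463 protein-coding genes (1.57%). It was present in 6 of the 16 that rose, 0 of the 2 that fell, 1 of 6 not called and 1 of 3 not tested. The list was chosen for SRF targets, so a share above that of all genes follows from the choice. A match describes the letters and not binding.

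Most tested actin and SRF target genes rose, with 17 of 26 tested members (of 30 listed) higher, 2 lower (0 without EpiLC replicate 2 or 3) and a median of 0.80. The tropomyosin gene Tpm1 lay at 27.2, 34.4 and 25.5 TPM in mESC and 275, 272 and 276 TPM in EpiLC and Tpm2 at 0.763, 1.69 and 0.734 TPM in mESC and 28.7, 25.3 and 24.6 TPM in EpiLC. Tagln, a smooth muscle actin-binding protein, lay at 0.0252, 0.114 and 0.0132 TPM in mESC and 11.3, 9.41 and 8.47 TPM in EpiLC. Cnn2, shown above with 1 CArG box, rose by 2.63, and Srf, with 2, lay at 6.09, 5.67 and 5.47 TPM in mESC and 10.4, 10.1 and 9.48 TPM in EpiLC. Actg1, with 1, rose by 0.53 (adjusted p = 0.0447) and was not called without any 1 of the 6 libraries (adjusted p = 0.0512 to 0.0768). The LIM protein gene Pdlim7 (2.60), zyxin Zyx (2.20), filamin Flna (1.77), vinculin Vcl (1.39) and non-muscle myosin Myh9 (1.37) rose. Actb, at 930.2, 651 and 869 TPM in mESC and 939, 867 and 848 TPM in EpiLC, was not called, and Acta2 stayed at or below 0.523 TPM.

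Chains of the basement membrane changed in both directions. In the matrix list 20 of 29 tested members (of 41 listed) rose and 6 fell, at a median of 1.16 (0.54 to 0.58 without any 1 EpiLC library), and 9 of them reached 1 TPM in EpiLC only. Without any 1 EpiLC library 11 were called higher. Lamb1 lay at 0.981, 2.27 and 1.24 TPM in mESC and 44.4, 49.7 and 47.5 TPM in EpiLC and Lama5 at 10.9, 13.1 and 16.8 TPM in mESC and 37.4, 44.6 and 42.7 TPM in EpiLC, while Lama1 fell from 11.5, 16.1 and 14.5 to 2.13, 2.38 and 2.47 TPM. Lamc1, the shared γ chain, lay at 29, 26 and 36.1 TPM in mESC and 32.8, 35.8 and 35.6 TPM in EpiLC and was not called. The groups did not overlap for Lamb1, Lama5 or Lama1 and did for Lamc1, which was called without mESC replicate 3 (0.29, adjusted p = 0.0452). The collagen IV genes Col4a1 and Col4a2 rose by 3.34 and 2.22, and Col18a1 by 3.80. The proteases Mmp14 and Mmp2 rose by 2.52 and 2.46. Nid1 (-4.04) and the phosphoprotein gene Spp1 (-5.82) fell. Of the receptors for these chains, Itga3 (2.12), Itga5 (1.48) and Itgb1 (1.19) rose and Itga6 (0.21 ± 0.13) was not called, with 6 of 13 in the integrin list higher, 3 lower and a median of 0.23 (0.09 without mESC replicate 2).

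Few genes of later lineages reached the minimum. Of 16 mesendoderm genes 4 were tested and 3 rose (1 without any 1 EpiLC library), among them Foxa2, an endoderm factor, from 0.0233, 0.0987 and 0 to 3.31, 2.81 and 2.66 TPM. Of 16 neural genes 6 were tested. Nes lay at 1.95, 1.44 and 2.09 TPM in mESC and 22.6, 24.2 and 24.7 TPM in EpiLC, Map2 and Irx3 rose by 1.63 and 1.48, and Sox21 fell by 3.05. In the trophoblast list Cdx2 fell from 3.75, 10.1 and 3.53 to 0.0572, 0.0327 and 0 TPM, with mESC replicate 2 highest.

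Metabolic genes separated by pathway. Most genes of cholesterol synthesis rose, with 19 of 24 tested members (of 24 listed) higher, 1 lower and a median of 0.65. Hmgcs1, the synthase at the start of the pathway, lay at 85.7, 73.1 and 75.4 TPM in mESC and 173, 165 and 167 TPM in EpiLC, 2.16-fold higher (adjusted p = 9.23e-05). The groups did not overlap. Cyp51 (1.09), Fdps (1.01) and Msmo1 (0.99) rose too. In the fatty acid list 7 of 23 rose and 9 fell, at a median of -0.10 (0.51 in unscaled TPM, 0.01, 0.00 and 0.01 without EpiLC replicate 1, 2 and 3, and -0.02 without mESC replicate 3). Cpt1a, which passes long-chain fatty acids to mitochondria, lay at 29.6, 29.3 and 32.8 TPM in mESC and 2.65, 2.72 and 2.98 TPM in EpiLC, 11-fold lower (adjusted p = 1.18e-06), while its isozyme Cpt1b rose by 1.74. The mitochondrial dehydrogenase Acadm fell by 1.15.

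Glycolysis genes changed by isozyme and by transporter, with 9 of 27 tested members (of 27 listed) higher, 6 lower and a median of 0.11 (0.22 and 0.24 without EpiLC replicate 2 and 3, and 0.17 and 0.04 without mESC replicate 1 and 2). These shares, 33.3% higher and 22.2% lower, stood beside 29.5% and 28.7% of all tested genes. The lactate exporter Slc16a3 lay at 6.74, 1.85 and 5.15 TPM in mESC and 79.3, 74.7 and 74.9 TPM in EpiLC and the glucose transporter Slc2a1 at 36.1, 24.7 and 34.3 TPM in mESC and 145, 133 and 129 TPM in EpiLC. Ldha rose by 0.77 while Ldhb fell by 1.31, and Pfkl rose by 1.65 while Pfkp fell by 2.93. Hk1 fell by 1.38, and Pkm (0.19 ± 0.17) was not called. Tdh, the threonine dehydrogenase on which mouse naive cells depend, lay at 356, 362 and 328 TPM in mESC and 7.83, 6.54 and 6.96 TPM in EpiLC, 49-fold lower (adjusted p = 4.97e-07). In its list of threonine, serine and one-carbon metabolism 4 of 23 rose and 8 fell. Gldc and Phgdh rose by 1.19 and 0.94. Of 19 tested of 20 listed genes of the amino acid response 10 rose and 3 fell, at a median of 0.40, with Vldlr (2.67) and Ddit4 (2.20) highest and Asns (-2.04) lowest. Of 15 tested of 18 listed hypoxia targets 7 rose and 4 fell. Vegfa, the vascular growth factor, lay at 7.34, 6.6 and 8.3 TPM in mESC and 34.5, 38.6 and 38.4 TPM in EpiLC, and Kdm3a, a histone demethylase, fell by 1.50.

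Most tested lysosome genes and many redox genes fell. Of 27 tested of 29 listed lysosome genes 19 fell and 5 rose (3 without mESC replicate 1 or 3 or any 1 EpiLC library), at a median of -0.71. Ctsa, or cathepsin A, lay at 89.8, 107 and 92.3 TPM in mESC and 29.5, 26.5 and 29.2 TPM in EpiLC, 3.39-fold lower (adjusted p = 1.48e-05). The cathepsin genes Ctsb (-1.61) and Ctsd (-1.21) fell, as did Tfeb (-1.68), a transcription factor of lysosome genes. Npc1, the cholesterol exporter, rose by 1.29. In the metallothionein and glutathione list 14 of 30 fell and 7 rose (4 without mESC replicate 3 or any 1 EpiLC library), at a median of -0.33 (0.17 in unscaled TPM, and -0.84 and -0.75 without EpiLC replicate 1 and 3). Gpx2 lay at 41.2, 74.9 and 29.7 TPM in mESC and 0.223, 0.286 and 0.176 TPM in EpiLC, and Nqo1 (-4.23) and the synthetase gene Gss (-2.86) fell, with no overlap of libraries for Gpx2.

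Antigen presentation and interferon genes went both ways. Of 23 tested genes, of 31 listed, 11 rose (7 without any 1 EpiLC library) and 10 fell, at a median of 0.22, which was -0.27 without any 1 EpiLC library and 0.49, 0.62 and 0.45 without mESC replicate 1, 2 and 3. The class I heavy chain H2-K1 lay at 4.17, 5.52 and 5.69 TPM in mESC and 45.4, 44.7 and 46.2 TPM in EpiLC, its light chain B2m at 21.8, 29.8 and 19.7 TPM in mESC and 68.5, 58.2 and 62 TPM in EpiLC, and the peptide transporter Tap1 rose by 1.37. Ly6a, or Sca-1, lay at 173, 308 and 151 TPM in mESC and 1.09, 0.66 and 0.512 TPM in EpiLC, and Oas1a (-3.96) and Ifitm1 (-3.27) fell. Bst2, also interferon-responsive, rose by 2.85.

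Cell cycle and survival genes changed in a few members. Of 26 tested of 27 listed G1 genes 7 rose and 9 fell (26.9% and 34.6%, beside 29.5% and 28.7% of all tested genes). The inhibitor genes Cdkn2a (-2.91), Cdkn2b (-1.76) and Cdkn1a (-1.60) fell and Cdkn1c (1.69) rose. Of the D cyclins, Ccnd2 lay at 0.453, 0.48 and 0.402 TPM in mESC and 4.02, 3.74 and 3.53 TPM in EpiLC, whereas Ccnd1 (-1.03) and Ccnd3 (-1.03) fell. Of 29 S and M phase genes 4 rose and 8 fell, and the count lower was 14 without mESC replicate 2, 3 without mESC replicate 1, and 2, 1 and 1 without EpiLC replicate 1, 2 and 3. Of 17 BCL2 family genes 7 rose (3 or 4 without any 1 EpiLC library) and 5 fell. Pmaip1, or Noxa, which promotes apoptosis, lay at 0.413, 0.688 and 0.236 TPM in mESC and 19, 15.8 and 15.9 TPM in EpiLC, and the anti-apoptotic Bcl2 rose by 1.88. Of 21 p53 targets 3 rose (7 without mESC replicate 2, 1 without EpiLC replicate 2) and 5 fell (8 without mESC replicate 3), and mESC replicate 2 was above both other mESC libraries for Cdkn1a, at 42.9, 81 and 46 TPM.

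Families that build the ribosome, mitochondrion and proteasome moved little per gene and mostly one way. Of 82 cytoplasmic ribosomal protein genes 32 fell and 0 rose (median -0.60). Of 78 nuclear genes of oxidative phosphorylation 52 fell and 1 rose (median -0.52). The counts were 31 lower and 3 higher of 78 mitochondrial ribosomal protein genes (-0.28), 19 and 3 of 38 proteasome genes (-0.28), and 12 and 2 of 17 V-type ATPase genes (-0.54). In unscaled TPM the 5 medians lay between 0.10 and 0.41, still below the 0.585 of all genes. With coding genes rescaled the mitochondrial ribosomal and proteasome medians were 0.05 and 0.07, below 0.295. Counts and some medians moved with single libraries. The mitochondrial ribosomal median was -0.16 and -0.14, and the proteasome median -0.16 and -0.16, without EpiLC replicate 2 and 3. Without EpiLC replicate 1, 2 and 3 the ribosomal count lower was 13, 5 and 5, without mESC replicate 1 it was 14 and without mESC replicate 3 it was 66. Without EpiLC replicate 2 and 3 it was 27 and 27 for oxidative phosphorylation, 15 and 14 for mitochondrial ribosomal and 3 and 3 for proteasome genes. Transcript length moved with these results. In 5 equal bins of the protein-coding genes by longest annotated transcript, the median log2 fold change rose from -0.26 in the shortest (75 to 1765 bases) to 0.30 in the longest (from 5142 bases). Against the median of their own length bins, the ribosomal, oxidative phosphorylation, mitochondrial ribosomal and proteasome medians were -0.36, -0.27, -0.06 and -0.04. The V-type ATPase, lysosome and matrix medians were -0.47, -0.61 and 0.86 by the same measure. The part of length in these results was not tested.

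**Figure D4:**
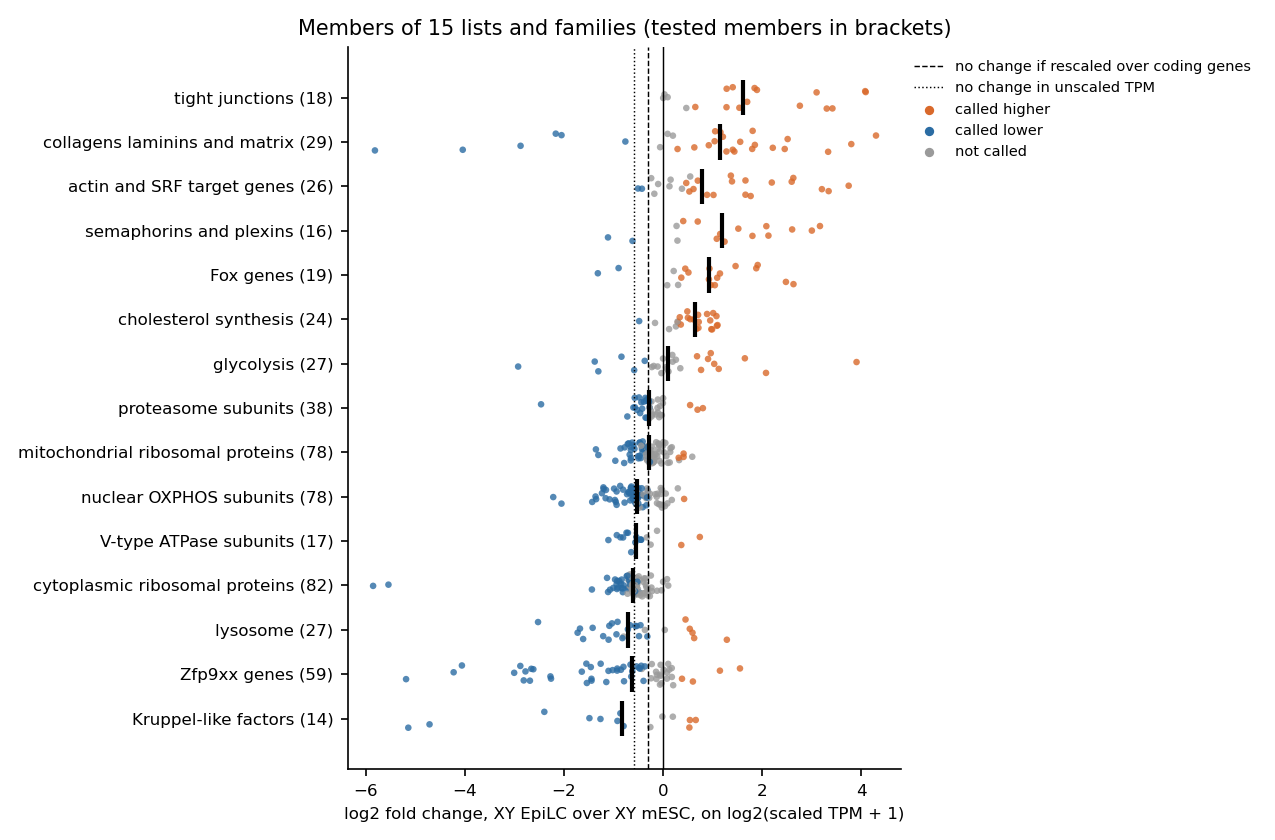
Log2 fold change (EpiLC minus mESC, x axis) of the tested members of 15 lists and families (y axis, number tested in brackets), 1 point per gene, coloured by call, with a black bar at the median. Solid, dashed and dotted lines mark no change here, with coding genes rescaled and in unscaled TPM; the 5 housekeeping families have medians from -0.28 to -0.60 (0.10 to 0.41 in unscaled TPM), and tight junctions and the matrix lie at 1.62 and 1.16.

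Families defined by symbol or by name changed as well. Of 14 tested of 17 listed Krüppel-like factor genes 8 fell and 3 rose, at a median of -0.83, with Klf3 (-1.26), Klf8 (-1.49) and Klf9 (-0.86) lower besides the naive members. Of 19 tested of 47 listed Fox genes 14 rose (7 without any 1 EpiLC library) and 2 fell, at a median of 0.94 (0.49 to 0.51 without any 1 EpiLC library), led by Foxj1 (2.64), Foxi3 (2.48) and Foxp1 (1.88). Of 17 potassium channel genes 13 rose (2 without any 1 EpiLC library) and 2 fell, and Kcnk1 lay at 0.269, 1.05 and 0.269 TPM in mESC and 26.3, 22.6 and 21.5 TPM in EpiLC. Of 11 serpins 8 fell (1 without any 1 mESC library), among them Serpinb6c (-4.72), and Serpine2 and the collagen chaperone gene Serpinh1 rose by 1.85 and 1.81. Of 4 tested of 16 listed connexin genes 3 fell, and Gja1, connexin 43, lay at 9.77, 8.85 and 8.91 TPM in mESC and 136, 116 and 121 TPM in EpiLC. Of 18 tested of 29 listed Platr genes, long non-coding RNAs named for their association with pluripotency, 13 fell and 2 rose, at a median of -1.54. Platr15 fell from 84, 75.5 and 98.7 to 5.66, 4.99 and 7.77 TPM and Platr22 rose by 2.51. Of 14 host genes of small nucleolar RNAs 10 fell and 3 rose, at a median of -0.82. Among symbol stems with at least 10 tested genes, Col (12 of 13 higher) and Chd (9 of 10 higher) had the largest shares higher, followed by Lrp (7 of 10), Sema (8 of 12) and Parp (7 of 11). Ndufb (8 of 10) and Cox (16 of 23) had the largest shares lower, followed by Pex (9 of 15), Tex (6 of 10) and Klf (8 of 14), and the stem Gm, which names unrelated predicted genes, was left out. How many stem members were tested through 1 state alone was not counted, nor were these shares taken without single libraries. By gene type, 288 of 1029 tested long non-coding RNAs rose and 232 fell, and 78 of 542 pseudogenes rose and 173 fell. Over all tested genes the shares were 29.5% higher and 28.7% lower.

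In the XX LF2 line most genes called in XY were called with the same sign, and many regulators changed by another amount. No library lies in both contrasts. The XX calls came from a fit of all 12 libraries, so their scaling and estimated spread also rest on the XY libraries. The 2 sets of calls are therefore not independent. Among the 13583 genes tested in both, 7897 were called in XY and 7030 in XX. Of these, 4762 were called in both with the same sign, which is 60.3% of the XY and 67.7% of these XX calls. XX calls among genes that missed the XY minimum were not counted. A further 331 (4.19% and 4.71%) had opposite signs. The difference between the transitions (XY minus XX, limma interaction over 12 libraries scaled together, 14378 genes) was called for 3870 genes (26.9%), 2046 (14.2%) above 0 and 1824 (12.7%) below. It was at least 1 in size for 764 (5.31%) above and 877 (6.1%) below. Without XX mESC replicate 2 there were 5876 (an alternative chosen after the data were seen). Formative factors differed in 14 of 17 tested members, 12 of them above 0, and naive factors in 11 of 16, 9 of them below 0. Cholesterol genes differed in 2 of 24 and ribosomal protein genes in 2 of 82.

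Several regulators differed by more than 2 on the log2 scale. On the common scale of the 12 libraries, Otx2 lay at 1.97, 1.2 and 1.98 TPM in XY mESC and 39.7, 41.2 and 41.9 TPM in XY EpiLC, but at 28.8, 17.9 and 27.5 TPM in XX mESC and 12.6, 12.1 and 11.9 TPM in XX EpiLC. It rose in XY and fell in XX, with a difference of 4.90 ± 0.24 (SE). Sox2 fell in both lines, to 2.48, 1.78 and 2.06 TPM in XY EpiLC and to 17.7, 16.7 and 17.8 TPM in XX EpiLC, with a difference of -2.61 ± 0.14. Tet1 rose from 0.495, 0.603 and 0.414 to 3.88, 4.05 and 4.48 TPM in XY and fell from 28.5, 25.4 and 36.9 to 15.7, 20.1 and 17.6 TPM in XX. The 3 XX mESC libraries lay above all 3 XY mESC libraries for Tet1 and Otx2. Actin and SRF target genes differed in 13 of 28, every one below 0. Acta1, skeletal muscle actin, reached 1.99, 1.6 and 1.92 TPM in XY EpiLC and 48, 47.1 and 49.5 TPM in XX EpiLC. Keratin and desmosome genes differed in 7 of 12 and antigen presentation genes in 10 of 23, all below 0. For Bmp4 the XY libraries went from 13, 12.5 and 10.8 to 2.04, 1.97 and 3.52 TPM and the XX libraries from 1.98, 0.154 and 0.791 to 9.83, 9.64 and 8.61 TPM. Line and sex cannot be told apart here.

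**Figure D5:**
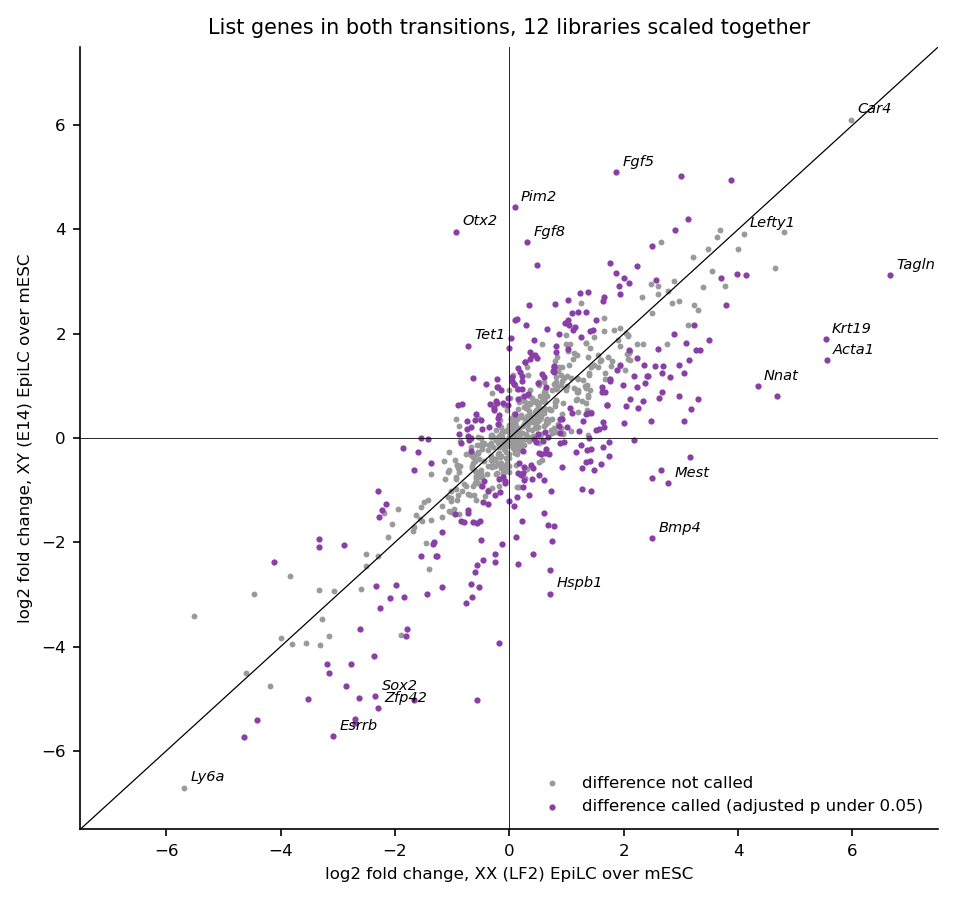
Log2 fold change of the 792 listed genes tested in both transitions, in XX LF2 (x axis) and in XY E14 (y axis), 1 point per gene, with the 320 genes whose difference was called in colour. Otx2 and Pim2 lie far above the diagonal, and Tagln and Bmp4 lie far below it.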

How the data were processed

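Total RNA (200 ng, RIN of at least 9) was depleted of ribosomal RNA and made into stranded libraries, per the labels' protocols. The authors deposited 1 table of TPM per transcript for 19 libraries, and the submitters' processing notes name FastQC 0.11.7, Trimmomatic 0.35, Salmon 1.1.0 and the build GRCm38. TPM is relative to all transcripts of a library and keeps no depth, so no count model was used. Of 140948 transcripts, 139357 were found in GENCODE M21 (GRCm38) by versioned identifier and 495 more by identifier alone, which left 1096 unmatched (0.0683 to 0.215% of TPM). TPM was summed per gene, and genes at 1 TPM or more in at least 3 of the 6 libraries were divided by median-of-ratios factors. Differences were fitted with limma 3.58.1 (R 4.3.3, trended eBayes) on log2(scaled TPM + 1), with Benjamini-Hochberg adjustment at 0.05. Summaries used Python 3.11.15 with pandas 2.3.3 and figures matplotlib 3.10.9. Promoters were taken from RefSeq on GRCm38.p6. On simulated data with 13583 genes and 200 changed, 91.5% of changes of 2 on the log2 scale were recovered with 17 false calls, 72% of changes of 1 with 8, and 0% of changes of 0.5. With so few genes changed the adjusted threshold is stricter there than in these data, so these shares are no limit for the calls here.

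The 47 gene lists, 40 families and the XY and XX comparison were chosen with earlier results of these data known. Named list members were taken first by size of change among called members with a mean of at least 5 TPM in the higher state, then uncalled members of known role, and the 12 largest changes each way were taken over all protein-coding genes. Same-numbered mESC and EpiLC libraries deviated together with correlations of 0.219, -0.04 and 0.316, and differently numbered ones with -0.303 to 0.105. The pairs numbered 1 and 3 passed the threshold set for pairing, 0.1, and the pair numbered 2 did not. The main fit left the libraries unpaired, so whether the numbers pair them is open. Alternatives were another pseudocount, filters, scalings, an untrended fit, all 19 libraries, a replicate block and each library left out. The 2 figures of single genes plot only genes named in the text, and some genes are not reported here.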

Additional observations from a re-analysis of the deposited data

Results flagged for a closer look

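The transition differed between the XY E14 and the XX LF2 line, by the interaction term of limma, for 3870 genes, with 2046 above 0 and 1824 below (XY minus XX). The 12 libraries were scaled together, so values differ slightly from those of the 6 XY libraries. Among the regulators named for this difference, those above 0, with the XX log2 fold change in brackets, were Otx2 at 4.90 (XX -0.94), the kinase gene Pim2 at 4.34 (XX 0.09), the ligand genes Fgf8 at 3.44 (XX 0.31) and Fgf5 at 3.22 (XX 1.87), and Tet1 at 2.50 (XX -0.72). Below 0 were the pluripotency factors Sox2 at -2.61 (XX -2.34), Esrrb at -2.65 (XX -3.08) and Zfp42 at -2.87 (XX -2.30), which fell in both lines and further in XY. Also below 0 were the ligand gene Bmp4 at -4.42 (XX 2.50), the muscle actin gene Acta1 at -4.05 (XX 5.55), the small heat shock gene Hspb1 at -3.70 (XX 0.72), the imprinted genes Mest at -3.64 (XX 2.77) and Nnat at -3.35 (XX 4.34), the keratin gene Krt19 at -3.63 (XX 5.53) and Tagln at -3.54 (XX 6.67). The adjusted p of each of these 15 differences was at most 2.45e-05, and each kept its call under every alternative run. The XX changes come from 3 libraries a state, scaled and tested in the fit of all 12 libraries.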

How the results depend on the processing

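The counts of genes called (7897), higher (4004) and lower (3893) and of differences from XX (3870) moved by over 1.5 times under these alternatives. A log2 change of at least 1 as well left 3115 called, 1600 higher, 1515 lower and 1641 differences. At 5 TPM, 2586 were lower and 2409 differences remained to be called. Lower calls were 2113 with coding genes rescaled and 1175 in unscaled TPM. Without 1 XY library the counts were 5078 to 8030 called, 2450 to 4167 higher and 2615 to 3863 lower, and of differences 2721 to 5876 without 1 of the 12. Medians changed sign for LIF (-0.50 at 5 TPM, -0.21 with all 19 libraries, -0.28 unfiltered, -0.13 to -0.17 without 1 EpiLC library and up to 0.20 without 1 mESC library), DNA methylation (-0.09 to -0.12 without 1 EpiLC library and up to 0.30 without 1 mESC library), antigen presentation (-0.27 likewise, and up to 0.62 without 1 mESC library), Polycomb (-0.20 to 0.01 without 1 library) and fatty acid genes (-0.14 to 0.01 without 1 library). With coding genes rescaled and in unscaled TPM they did so for Polycomb (0.18 and 0.50), fatty acid (0.24 and 0.51), heterochromatin (0.09 and 0.41), mitochondrial ribosomal (0.05 and 0.38) and proteasome genes (0.07 and 0.41). In unscaled TPM alone they did so for glutathione (0.17), cytoplasmic ribosomal (0.10), oxidative phosphorylation (0.17) and V-type ATPase genes (0.11). These shifts follow from those scalings, whose medians over all genes were 0.295 and 0.585. Ddx3y was at 0.30 in unscaled TPM. Of the named risers and falls, Actg1, Cdh2, Dab2, Fst, Ldha and T were not called with all 19 libraries, and Actg1 and Tdgf1 were not with no filter. Of the named genes not called, Nodal, Igf2r, Itga6, Lamc1, Actb and Pkm were called higher with quantile normalization and in unscaled TPM, Ctnnb1 with quantile normalization (0.35, from -0.18), and Etv1 and Id2 in unscaled TPM and with all 19 libraries. The replicate block gave 7962 calls, 4008 higher and 3954 lower, and 3244 differences, on numbers that only the titles share. Depth is unknown, and 3 libraries a state limit the precision. The pseudocount of 0.1, the untrended fit and quantile normalization kept each count within 1.5 times.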
